A study of Mus musculus with 6 samples.

Results

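The genes described here are 29 genes of cholesterol synthesis and lipid export, measured by single-cell RNA sequencing in cells sorted from the mouse amygdala. They are a fixed list of symbols, chosen with earlier results of these data known. All 29 were found once among the 32285 genes of the deposited tables. The list holds 18 enzymes of sterol synthesis (Acat2, Hmgcs1, Mvk, Pmvk, Mvd, Idi1, Fdps, Fdft1, Sqle, Lss, Cyp51, Tm7sf2, Msmo1, Nsdhl, Hsd17b7, Ebp, Sc5d and Dhcr7), 3 proteins that control the pathway (Srebf2, Scap and Insig1), 5 genes of sterol transport and storage (Stard4, Npc1, Npc2, Soat1 and Acsl3) and 3 genes of lipid export and uptake (Abca1, Apoe and Lrp1).

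The 16 mice, 4 in each of 4 groups, were young adult wildtype C57BL/6N mice, male per the labels. Every mouse was first habituated, then received foot shocks in a conditioning chamber (fear conditioning, FC) or none (NoFC); further shocked mice were returned to the chamber a day later (fear recall, FR) or stayed in the home cage (NoFR). The amygdala was dissected after behaviour with inhibitors of transcription and translation in the buffers, and cells were sorted on the astrocyte surface antigen ACSA-2, encoded by Atp1b2. Cells of several mice were marked with hashtag antibodies and pooled into 3 gene expression libraries, each with its own hashtag counts.

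The libraries held 13546 barcodes. Barcodes with at least 20 UMIs (unique molecular identifiers, counts of separate molecules) of the glutamate transporter genes Slc1a2 and Slc1a3 together and at most 3 of Vtn and Rgs5 were taken as astrocytes, and those with at least 10 UMIs of Vtn and Rgs5 and at most 5 of Slc1a2 and Slc1a3 as pericytes, the contractile cells of capillaries. This gave 8757 astrocytes (3557, 2503 and 2697 in libraries 1, 2 and 3) and 2260 pericytes (880, 664 and 716). The median depth was 9667 to 10281 UMIs per astrocyte and 4833 to 5205.5 per pericyte, and 101 barcodes lay over the lower limits of both classes and entered neither. Libraries shared 3 to 8 barcodes by pairs.

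Both classes carried the markers of their names that the gates did not use. All 8 astrocyte markers were higher in astrocytes, with Slc4a4 by 7.15, Gja1 by 6.96 and Aqp4 by 6.95 on the log2 scale. All 8 pericyte markers were higher in pericytes. Atp1b2, the gene of the antigen used in the sort, differed by only 0.48. Summed over the 8 astrocyte markers, the level was 8177 to 8251 CPM (UMIs scaled to a common library size) in astrocytes and 731 to 802 in pericytes, of which Atp1b2 made up the greater part. Smooth muscle markers summed to 151 to 209 CPM in pericytes and 0.516 to 0.603 in astrocytes, and endothelial markers to 162.5 to 177.9 and 1.4 to 6.2. How much came from other vascular cells was not tested. Of the pericyte markers, Pdgfrb was seen in 47.4% of astrocytes, Atp13a5 in 37.0% and Notch3 in 28.8%. Kcnj8, Abcc9, Higd1b, Anpep and Ndufa4l2 were each seen in at most 0.718%. Free RNA can place UMIs in cells that do not express a gene. A Gja1 UMI was seen in 7.20% ± 2.67 of pericytes and an Aqp4 UMI in 2.60% ± 0.898 (SD, n = 3 libraries), against 93.4% ± 0.813 and 88.8% ± 0.507 of astrocytes. These shares are at the full and unlike depths of the classes. The source of the Gja1 and Aqp4 UMIs in pericytes and of the Pdgfrb, Atp13a5 and Notch3 UMIs in astrocytes was not tested.

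Cholesterol does not pass from the blood into the brain in quantity, so brain cells make their own, and astrocytes are a main source in the adult. Synthesis starts from acetyl-CoA, runs through mevalonate to squalene, and then through ring closure and a series of oxidations and reductions to cholesterol. The transcription factor SREBP-2 (gene Srebf2) is escorted by SCAP to the Golgi when sterols are low and switches on most of the enzymes, while INSIG1 holds SCAP back when sterols are high. Astrocytes then pass cholesterol through the transporter ABCA1 onto particles carrying apolipoprotein E, which other cells take up through receptors such as LRP1.

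Promoter sequence was examined because most of the synthesis enzymes are known to share control by SREBP-2, which acts together with the CCAAT-binding factor NF-Y. The other members were searched in the same way. RefSeq start sites (build GRCm38.p6) matched 24 of the 29 genes. A gene was counted if the 250 bases before any of its start sites held a match, for members and for all genes alike. CCAAT on either strand was found in 14 of 15 synthesis enzymes with an entry and in 5 of 9 other members, against 37.5% of 27025 genes. The matches of Dhcr7 lay at its start sites 2 and 3, and that of Scap at start site 2. The sterol regulatory element core TCACNCCAC, also searched on both strands, was found in 1 of 24 members, Hmgcs1, against 1.22% of all genes. The palindrome CACGTG was found in 6 of 24 (Abca1, Dhcr7, Hsd17b7, Insig1, Sc5d and Scap), against 6.86%. The motifs do not overlap in the windows shown, and a match is only a description of the letters.

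The windows of 2 synthesis enzymes and 2 export genes are shown 5′ to 3′ in the direction of the gene, with each match to a searched motif in capitals, because they set the 2 ends of the pathway side by side. None of them overlaps the annotated span of its own gene, and overlap with exons of other genes was not tested. Hmgcs1, the enzyme that forms HMG-CoA (chr13:119690101-119690350, forward strand), held 3 CCAAT matches and the sterol element core; Mvd, which makes isopentenyl diphosphate (chr8:122443423-122443672, reverse strand), held 2 CCAAT matches; the cholesterol exporter Abca1 (chr4:53159896-53160145, reverse strand) held 1 CACGTG; and Apoe (chr7:19699189-19699438, reverse strand) held no match.
Hmgcs1: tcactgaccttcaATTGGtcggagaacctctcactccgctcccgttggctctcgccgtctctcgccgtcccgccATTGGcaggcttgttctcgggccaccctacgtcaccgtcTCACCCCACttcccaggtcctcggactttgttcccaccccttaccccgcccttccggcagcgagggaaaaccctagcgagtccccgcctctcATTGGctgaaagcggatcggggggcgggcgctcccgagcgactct
Mvd: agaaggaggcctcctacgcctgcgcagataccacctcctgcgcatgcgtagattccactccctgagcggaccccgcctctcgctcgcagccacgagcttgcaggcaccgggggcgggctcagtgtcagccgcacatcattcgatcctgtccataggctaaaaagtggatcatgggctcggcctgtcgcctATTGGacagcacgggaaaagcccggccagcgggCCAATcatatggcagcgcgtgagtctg
Abca1: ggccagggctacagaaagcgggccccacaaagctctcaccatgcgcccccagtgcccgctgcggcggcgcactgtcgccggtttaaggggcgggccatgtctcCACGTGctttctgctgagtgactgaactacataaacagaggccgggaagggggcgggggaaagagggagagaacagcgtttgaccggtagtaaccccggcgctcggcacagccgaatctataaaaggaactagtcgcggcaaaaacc
Apoe: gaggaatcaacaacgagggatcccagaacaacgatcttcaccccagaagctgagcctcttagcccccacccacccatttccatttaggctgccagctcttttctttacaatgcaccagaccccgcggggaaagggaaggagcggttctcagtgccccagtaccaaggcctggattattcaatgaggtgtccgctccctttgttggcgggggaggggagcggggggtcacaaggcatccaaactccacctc

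The first comparison asked how the pathway was divided between astrocytes and pericytes. Of the 29 members, 27 were higher in astrocytes and 2, Ebp and Lrp1, were higher in pericytes (adjusted p below 0.05, edgeR's quasi-likelihood test on counts summed per library and class, with library as a block). Over all 15365 genes tested, 42.8% were higher and 36.9% lower in astrocytes. The list was chosen with earlier results of these data known, so its contrast with all genes may follow in part from that choice. The members were at least 2-fold higher in astrocytes in 21 of 29 cases, against 27.4% of all genes. The median log2 difference was 2.50 over the members and 0.10 over all genes tested. All 29 passed the filter on low counts, and the values of the 3 libraries did not overlap between the classes for 28 members, with Pmvk the exception, as for 82.2% of all genes.

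**Figure D1:**
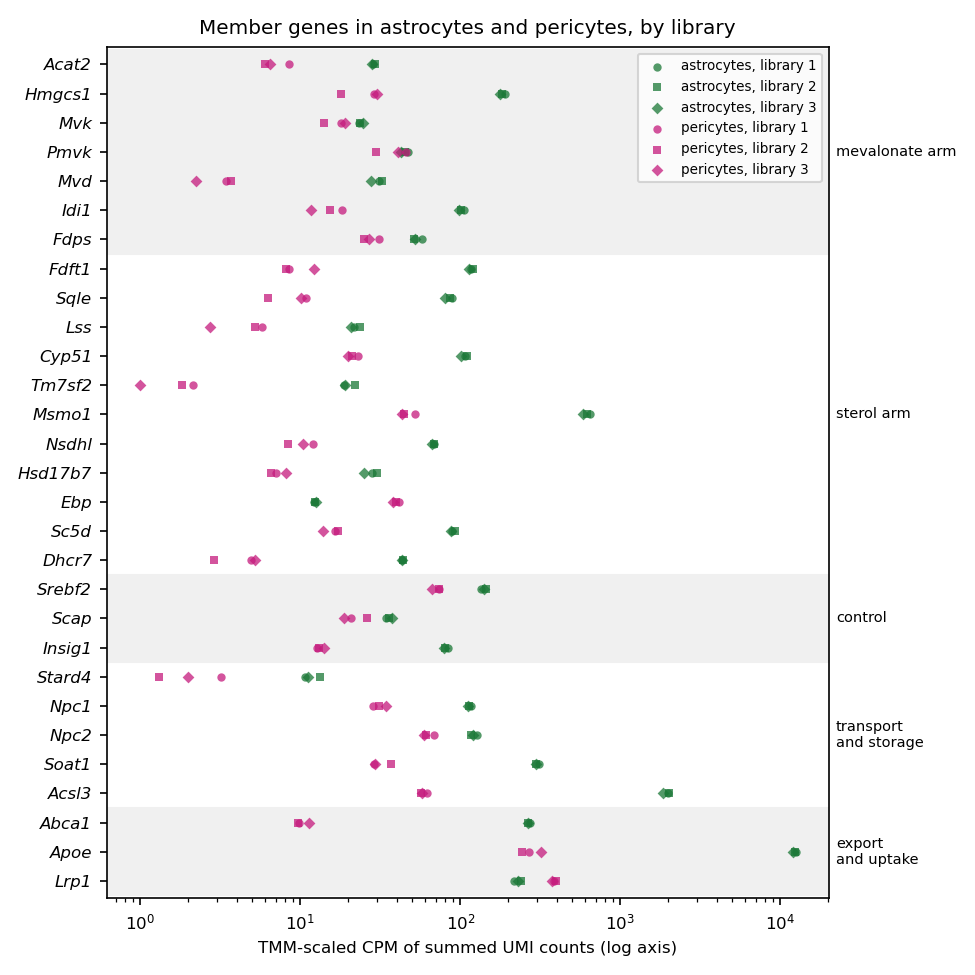
Level of each member in astrocytes (green) and pericytes (magenta), one point per library, on a log axis of CPM scaled by TMM factors. Points of the 2 classes are apart for 28 of 29 genes, and Ebp and Lrp1 lie higher in pericytes.

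The synthesis enzymes of the mevalonate arm were all higher in astrocytes, but by unequal amounts. Hmgcs1 was at 189.5, 181.5 and 177.3 CPM in the astrocytes of libraries 1, 2 and 3 and at 28.8, 18.0 and 30.2 CPM in pericytes, a log2 difference of 2.82 (standard error 0.089). Mvd was at 30.9, 32.4 and 27.5 CPM against 3.41, 3.66 and 2.23, a difference of 3.28. These 2 genes and Idi1, which isomerises isopentenyl diphosphate (2.74), had the widest gaps of this arm, and no astrocyte library came near a pericyte library.

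Acat2, which joins acetyl-CoA units, differed by 2.02, and Fdps, which makes farnesyl diphosphate, by 0.96. The 2 kinases of the arm differed least: Mvk by 0.47 (adjusted p = 0.0003217) and Pmvk by 0.21 (adjusted p = 0.0303), both from edgeR's quasi-likelihood test. Pmvk was at 47.1, 45.3 and 42.8 CPM in astrocytes and at 45.4, 29.8 and 40.6 in pericytes, so the classes overlapped. Without library 2 the difference of Pmvk was 0.06 (adjusted p = 0.528), and with total counts in place of TMM factors it was 0.00 (adjusted p = 0.975), from the same test.

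The sterol arm, from squalene to cholesterol, held the 4 synthesis enzymes with the widest differences between the classes. The last of these, Dhcr7 (3.31, standard error 0.142), lay within error of Mvd in the mevalonate arm (3.28, standard error 0.159). Msmo1, the oxidase that removes the C4 methyl groups, was at 643, 622 and 580 CPM in astrocytes and at 52.3, 44.7 and 43.1 CPM in pericytes, a log2 difference of 3.71 (standard error 0.068). Fdft1, the squalene synthase at the branch point into sterols, was at 116.0, 119.6 and 113.2 against 8.53, 8.11 and 12.1 CPM, a difference of 3.60. In both genes the lowest astrocyte library lay many fold above the highest pericyte library.

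Tm7sf2, a sterol reductase, differed by 3.56 at a low level, 0.99 to 2.13 CPM in pericytes. Dhcr7, which acts at the end of the pathway, differed by 3.31, and Sqle, which epoxidises squalene, by 3.20. Nsdhl (2.71), Sc5d (2.50), Cyp51 (2.32), Lss (2.25) and Hsd17b7 (1.93) followed. These enzymes decarboxylate, desaturate, demethylate, cyclise and reduce the sterol intermediates.

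Ebp, the isomerase that shifts the ring double bond, ran the other way. It was at 12.2, 12.3 and 12.6 CPM in astrocytes and at 41.6, 39.5 and 37.9 CPM in pericytes, 3.22-fold higher in pericytes (log2 difference −1.69, standard error 0.096, edgeR adjusted p = 3.577e-15). All 3 libraries showed it, and it was the only synthesis enzyme of the 18 that was higher in pericytes.

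**Figure D2:**
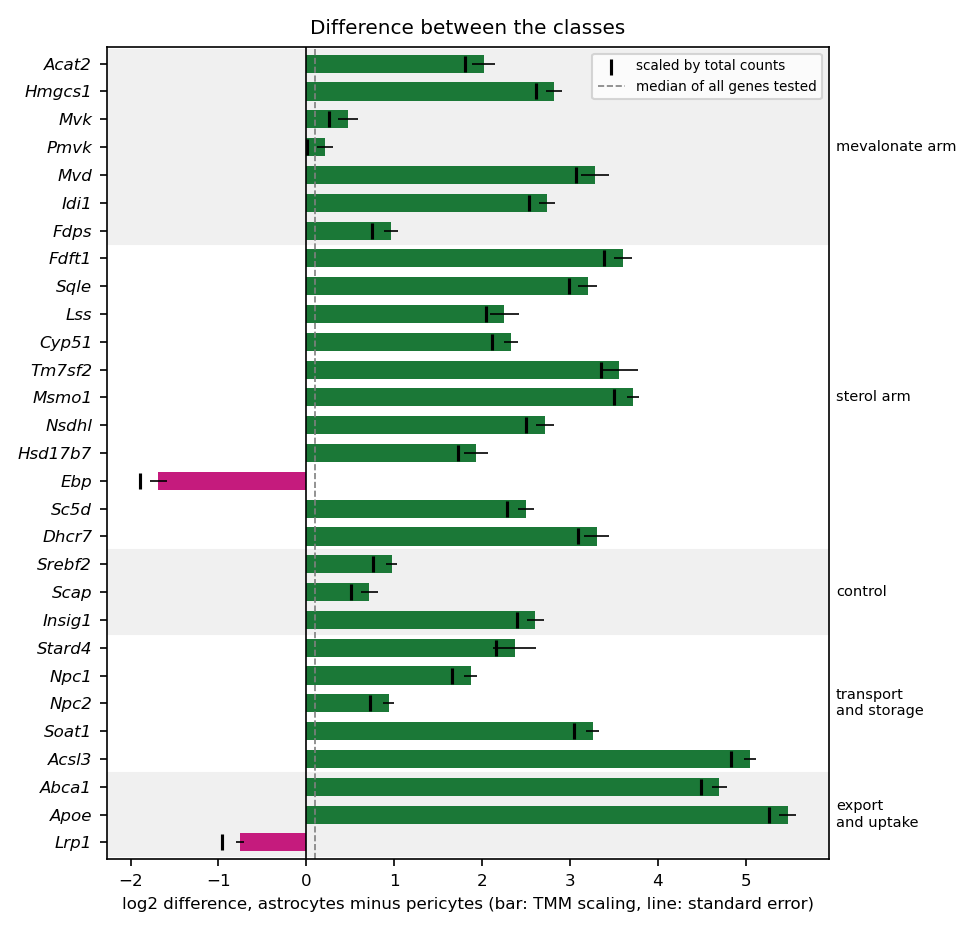
Log2 difference of each member between astrocytes and pericytes with its standard error (bars, TMM scaling), and the same with total-count scaling (ticks). The dashed line is the median of all genes tested, 0.10; Ebp and Lrp1 point to pericytes and Pmvk falls to 0.00 with total-count scaling.

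Of the genes that control the pathway, Insig1 showed the widest gap, at 83.9, 80.7 and 78.5 CPM in astrocytes and 12.8, 13.1 and 14.1 in pericytes (log2 difference 2.61, standard error 0.093). INSIG1 is itself a target of SREBP-2. Srebf2 differed by 0.97 and Scap by 0.72. Srebf2 was at 134.2 to 145.6 CPM in astrocytes and 66.6 to 74.0 in pericytes, so the gene of the transcription factor was well detected in both classes.

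Among the genes of transport and storage, Acsl3, a fatty acid activating enzyme of lipid droplets, was at 1992, 2007 and 1860 CPM in astrocytes and at 61.7, 57.0 and 57.9 CPM in pericytes (log2 difference 5.05, standard error 0.073). Soat1, which esterifies cholesterol for storage, was at 309, 298 and 297 against 29.0, 36.6 and 29.5 CPM (3.26). Both genes were many fold lower in every pericyte library than in every astrocyte library. The sterol carrier Stard4 differed by 2.37 at a low level, 10.6 to 13.2 CPM in astrocytes. Of the pair that moves cholesterol out of lysosomes, the membrane protein gene Npc1 differed by 1.87 and its soluble partner Npc2 by 0.94.

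Export and uptake were split. Abca1 was at 273, 263 and 266 CPM in astrocytes and at 9.81, 9.68 and 11.4 CPM in pericytes, a 26.0-fold difference (log2 4.70, standard error 0.089). Apoe was at 12508, 12327 and 12077 CPM against 268, 244 and 318 CPM, a 44.6-fold difference (log2 5.48, standard error 0.093). The receptor Lrp1 was at 216, 238 and 230 CPM in astrocytes and at 386, 395 and 372 in pericytes, 1.69-fold higher in pericytes (log2 −0.75, standard error 0.049). The gap of Apoe between classes was smaller than that of Aqp4 and Gja1, whose pericyte levels were 3.92 to 20.1 CPM; how much of the Apoe in pericyte barcodes was free RNA was not tested.

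The number of cells with a UMI gave a like picture after every cell was thinned to 3000 UMIs, which left 8216 astrocytes and 2103 pericytes. The share was larger in astrocytes for 26 members and smaller for 3, Ebp, Lrp1 and Pmvk. For Pmvk the gap was below the SD over libraries, at 12.2% ± 0.409 of astrocytes and 12.4% ± 1.77 of pericytes. Acsl3 was seen in 97.4% ± 0.208 of astrocytes and 15.2% ± 1.22 of pericytes (SD, n = 3 libraries), Msmo1 in 71.2% ± 0.880 and 13.3% ± 1.75, and Abca1 in 50.2% ± 0.909 and 3.21% ± 0.288. Lrp1 was seen in 45.3% ± 1.57 of astrocytes and 67.9% ± 1.12 of pericytes. Without thinning, a UMI of Hmgcs1 was seen in 63.9% ± 0.736 of astrocytes, and in 34.3% ± 0.881 after it.

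**Figure D3:**
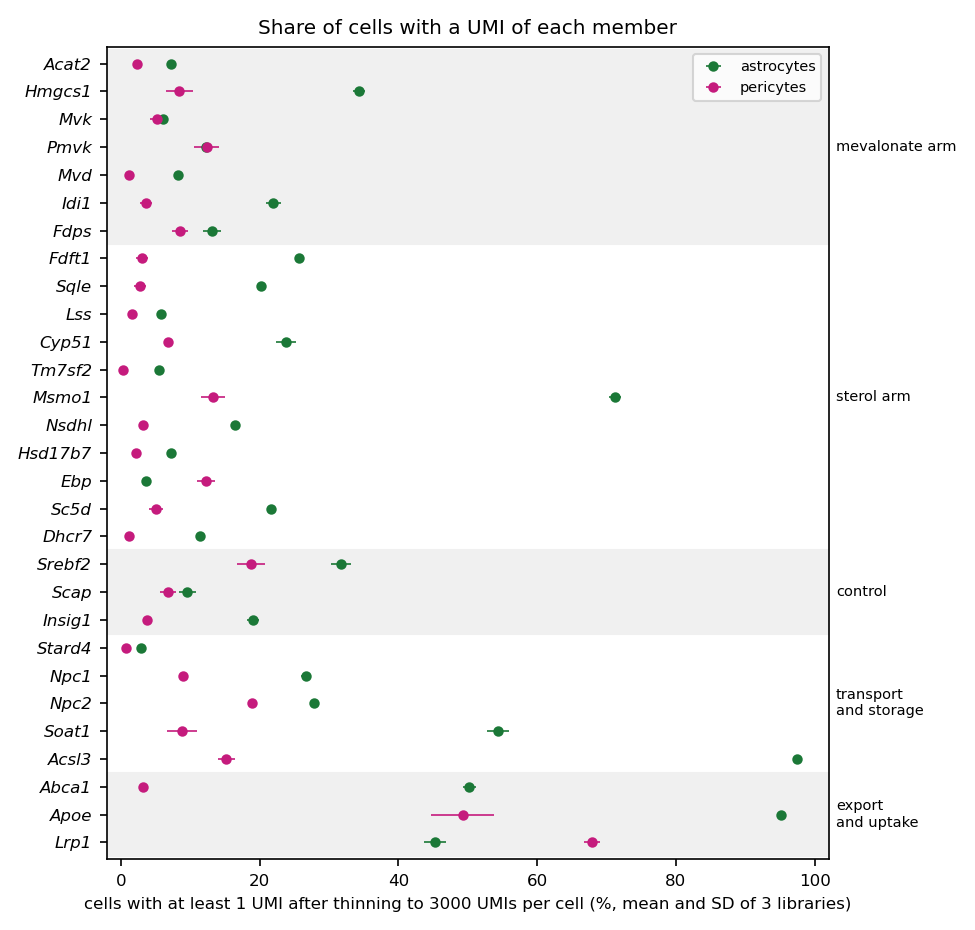
Percent of cells with at least 1 UMI of each member after thinning to 3000 UMIs per cell, mean and SD of 3 libraries, in astrocytes (green) and pericytes (magenta). Acsl3 and Apoe were seen in 97.4% and 95.1% of astrocytes, and Lrp1 in more pericytes than astrocytes.

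At the thinned depth the variance of the counts over their mean among astrocytes was 16.7 for Apoe, 1.91 for Acsl3, 1.80 for Msmo1 and 1.42 for Hmgcs1. For the other 25 members it was 1.02 to 1.23, and at their means of 0.0307 to 0.834 UMIs per cell this ratio lies near 1 even where cells differ, so it does not show that these genes were level. The median astrocyte held 35 Apoe UMIs of 3000 in each of the 3 libraries, the 5th percentile held 0 to 1 and the 95th 78 to 79. Across cells within a library, the counts of Acsl3 and Apoe had a Pearson correlation of 0.315 to 0.351, the highest of the 406 pairs of members. For Msmo1 and Apoe it was 0.27 to 0.292, and for Abca1 and Apoe it was −0.087 to −0.0414. Apoe, Acsl3 and Msmo1 had the highest means of the members, at 36.2, 5.6 and 1.74 UMIs per cell. Counting noise lowers the correlation of genes with few UMIs, so the order of the pairs depends in part on level. The correlations are descriptions: the cells share their library and were set to 1 depth.

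The other lipid genes of the study's cells did not all follow. The list of fatty acid synthesis stood closest to the members, with 14 of 15 genes higher in astrocytes and 1 lower: Elovl2, which lengthens polyunsaturated fatty acids, by 7.36, the lipogenic regulators Thrsp by 6.41 and Mlxipl by 6.17, and Elovl1 lower by −0.61. Its median was 2.93. Of 20 genes of fatty acid activation, binding and oxidation, 13 were higher and 5 lower in astrocytes, with the acyl-CoA synthetases divided: Acsbg1 (6.56) and Acsl6 (6.35) stood high in astrocytes and Acsl1 (−6.30) and Acsl5 (−4.49) in pericytes, as did the droplet protein gene Plin2 (−1.82), while the fatty acid binding protein gene Fabp7 was higher in astrocytes (5.68).

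Of 28 tested genes of sterol transport and lipoprotein, 14 were higher in astrocytes and 13 lower. The sorting receptor gene Sorl1 (7.21) and the apolipoprotein genes Clu (6.75) and Apoc1 (6.64) stood high in astrocytes, and the apolipoprotein gene Apod (−7.76) and Mylip (−5.12), whose product degrades lipoprotein receptors, in pericytes. Of 15 further sterol genes tested, 7 were higher and 5 lower, led by the reductase gene Cyb5r3 (−3.86), Lbr (−1.67) and the SREBP protease gene Mbtps1 (−0.99). Of 5 oxysterol enzymes tested, Cyp46a1, the cholesterol 24-hydroxylase (3.36), and Hsd3b7 (0.45) were higher and Cyp27a1 (−5.71) and Cyp39a1 (−2.42) lower in astrocytes. The medians of these 3 lists and of the fatty acid activation list lay between 0.06 and 0.48.

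The next comparison asked whether the pathway was level among astrocytes themselves. Astrocytes with at least 2 UMIs of Agt, which encodes angiotensinogen, and none of Igfbp2 (1350, 1053 and 1062 cells in the 3 libraries) were set against astrocytes with at least 2 UMIs of Igfbp2, which encodes an IGF binding protein, and none of Agt (296, 141 and 185 cells). This comparison was added after the class comparison had been seen. Because the members were chosen with earlier results of these data known, their contrast with all genes is no independent test here either. Of the 29 members, 17 were lower and 3 higher in Agt astrocytes (edgeR's quasi-likelihood test on sums per library, library as a block), against 12.2% of 13125 genes lower and 9.47% higher. The median was −0.32 over the members and 0.00 over all genes tested.

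Synthesis lay lower in Agt astrocytes. Of the 18 synthesis enzymes, 14 were lower and 0 higher, and 16 of the 17 members called lower were lower in all 3 libraries, with Sc5d lower in 2. The calls came from a fit on these same libraries, so the direction within libraries is largely fixed by the call. Mvd was at 21.3, 24.3 and 20.8 CPM in Agt astrocytes and at 46.4, 57.4 and 35.4 CPM in Igfbp2 astrocytes, a log2 difference of −1.06 (standard error 0.117). Fdps was at 42.4, 44.8 and 45.1 against 82.5, 70.8 and 67.7 CPM (−0.76), Idi1 at 83.3, 88.7 and 78.9 against 136.4, 134.7 and 124.7 (−0.66) and Hmgcs1 at 146.8, 158.4 and 138.7 against 232, 233 and 221 (−0.63). In these 4 genes of the mevalonate arm every Agt library lay below every Igfbp2 library. The share of all genes that did so was not computed.

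In the sterol arm, Msmo1 was at 523, 552 and 512 CPM in Agt astrocytes and at 834, 737 and 704 CPM in Igfbp2 astrocytes (log2 −0.52, standard error 0.055). Nsdhl (−0.53), Sqle (−0.50), Hsd17b7 (−0.50), Dhcr7 (−0.48) and Cyp51 (−0.32) were lower as well, and Fdft1 (−0.24) and Sc5d (−0.22) by less. Lss (−0.25), Tm7sf2 (−0.37) and Ebp in this arm and Mvk in the other did not pass the test. Mvk was at −0.36 (adjusted p = 0.0540, edgeR). Ebp pointed the other way, at 0.29 (adjusted p = 0.315, edgeR), and was higher in Agt astrocytes in all 3 libraries. The control genes Insig1 (−0.42) and Srebf2 (−0.23) and the lysosomal Npc1 (−0.31) were also lower, and Scap (0.25) did not pass. Of these, Insig1 (−0.24, adjusted p = 0.259) and Npc1 (−0.22, adjusted p = 0.228) lost the call after thinning to 3000 UMIs, and Srebf2 lost it with DESeq2, with cells of 8000 to 14000 UMIs and without library 1 (−0.13, adjusted p = 0.474), by edgeR except where DESeq2 is named. The enzymes Acat2 (−0.33), Fdft1, Hsd17b7 and Sc5d also lost the call under 2 to 7 of the 10 alternatives, Hsd17b7 being at −0.27 after thinning and Acat2 at −0.19 without library 1. Fdft1 was at −0.16 after thinning, and Sc5d at −0.11 where 1 UMI of Agt or Igfbp2 was enough.

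The 3 members higher in Agt astrocytes were the export genes Abca1 and Apoe and, of transport and storage, Acsl3, while the receptor Lrp1 (0.03) did not pass. Abca1 was at 298, 269 and 281 CPM in Agt astrocytes and at 226, 186 and 217 CPM in Igfbp2 astrocytes, 1.35-fold higher (log2 0.43, standard error 0.063). Acsl3 was higher by 0.23 and Apoe by 0.22, the latter at 13166, 12939 and 13165 against 11793, 11554 and 10448 CPM. In all 3 genes every Agt library lay above every Igfbp2 library, but these are the libraries the calls were made on. The share over all genes was not computed. The differences were small beside those between the classes.

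**Figure D4:**
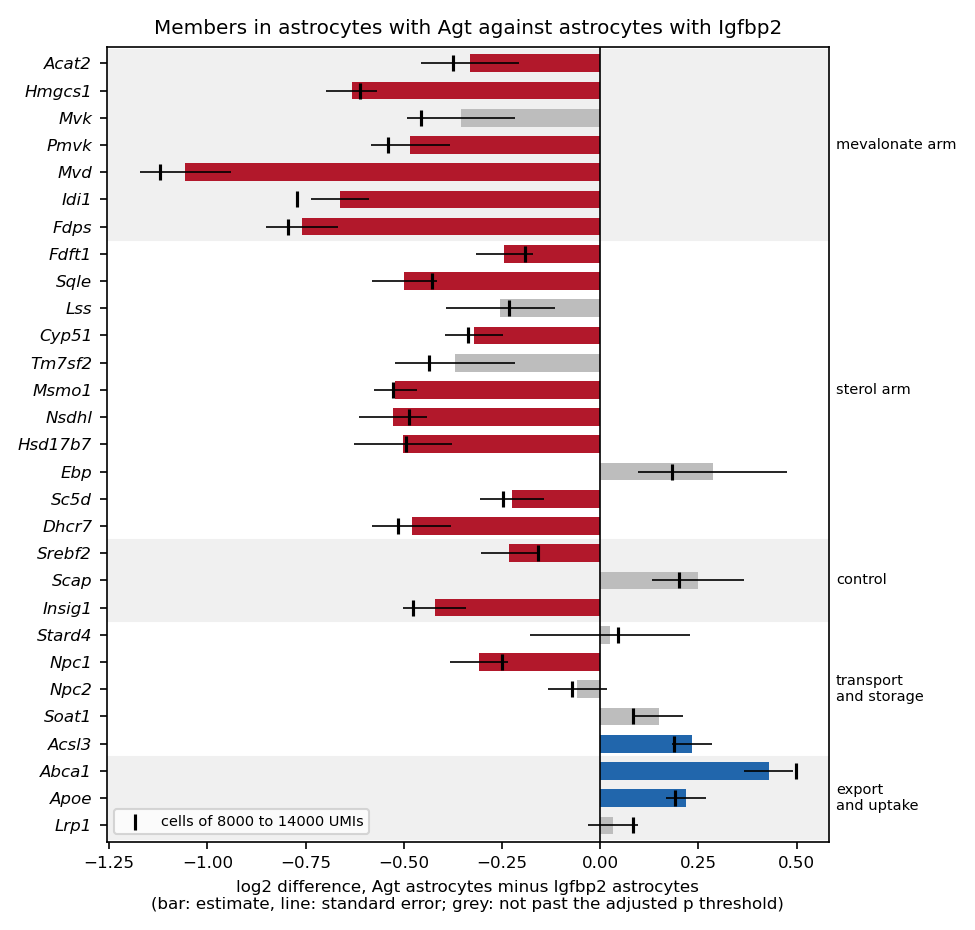
Log2 difference of each member between Agt astrocytes and Igfbp2 astrocytes, with standard errors; red is lower and blue higher in Agt astrocytes, grey did not pass, and ticks show cells of 8000 to 14000 UMIs only. Mvd is lowest at −1.06 and Abca1 highest at 0.43.

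Depth differed between these astrocytes, with medians of 9498 to 10243 UMIs per Agt astrocyte and 11480 to 12150 per Igfbp2 astrocyte. With cells of 8000 to 14000 UMIs alone, 12 members were lower and 3 higher, and the same counts came after thinning to 3000 UMIs and from DESeq2. Hmgcs1, Pmvk, Mvd, Idi1, Fdps, Sqle, Cyp51, Msmo1, Nsdhl and Dhcr7 were called lower, and Acsl3, Abca1 and Apoe higher, under all 10 alternatives run. The 8 astrocyte markers summed to 8718 to 8938 CPM in Agt and 8624 to 9103 CPM in Igfbp2 astrocytes, but single markers differed. Gja1 (0.29), Gjb6 (0.28) and Ntsr2 (0.25) were called higher in Agt astrocytes, and Aldoc (−0.49) and Aqp4 (−0.30) lower. Differences of this size were thus not confined to lipid genes. The proliferation genes Mki67 and Top2a summed to at most 0.0906 CPM in either.

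Among the other lists, the SREBP-1 gene Srebf1 (0.41) was higher in Agt astrocytes. Of the lipoprotein list the phospholipid transfer protein gene Pltp (1.76) and Apoc1 (1.57) were higher, and 4 genes were lower, led by Lcat (−0.71), which esterifies cholesterol on lipoprotein particles, Tspo (−0.67) and Scp2 (−0.23). In fatty acid synthesis 5 of 15 genes were higher, led by the desaturase genes Scd1 (0.37), Scd2 (0.31) and Fads2 (0.30), and 4 lower, led by Thrsp (−1.20), Elovl2 (−0.67) and Acss2 (−0.36). In fatty acid activation, binding and oxidation 0 of 19 were higher and 5 lower, led by Fabp5 (−0.40), Fabp7 (−0.36) and Acsbg1 (−0.33); edgeR's adjusted p was the threshold throughout. Of 3 oxysterol enzymes tested, Cyp7b1 (0.28) was higher.

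The comparison at the centre of the study was between the 4 groups of mice. A cell was given to a mouse when its top hashtag had at least 10 UMIs and at least 3 times the next. Only 446 of 8757 astrocytes had such a hashtag, against 1562 of 2260 pericytes. Keeping hashtags of listed mice left 335 astrocytes and 1024 pericytes. Mouse FC 1 held 159 of the 335 astrocytes and the other 15 mice 3 to 46, while each mouse held 36 to 110 pericytes. Counts were summed per mouse, and only 12 members in astrocytes and 13 in pericytes had counts enough to be tested. Most enzymes of the pathway could thus not be compared between groups with the cells that were given to a mouse. The groups are spread unevenly over the libraries, and library was a term of the fit.

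No member passed the adjusted threshold in any of the 6 pairs of groups in either class, by edgeR or by DESeq2. In astrocytes 0% of 2375 genes passed in every pair, and 15 to 167 genes had an unadjusted p below 0.05. In pericytes 1.07% of 6543 genes passed in NoFR against NoFC, 0.443% in NoFR against FC, 0.0917% in FR against NoFR and 0% in the others, where 299 to 419 genes had an unadjusted p below 0.05. Of the 150 tests of a member, 11 had an unadjusted p below 0.05; they are named here by that rule and none is a call. That is 7.33% of the member tests, against 5.52% of the tests of all genes over the same pairs and classes, and 8.59% in the highest pair, NoFR against NoFC in pericytes. The share over all genes leans more on pericytes, with 6543 genes tested against 2375, than the member share does. By class, 2 of the 11 were in astrocytes, where 0.632% to 7.03% of all genes had such a p by pair. The other 9 were in pericytes, where 4.57% to 8.59% did. Pairs that share a group share its mice. The exact permutation p given below is for tests already picked by their p in the same mice, so a low value follows in part from that choice. It also exchanged mice between libraries freely. Adjusted over the 11 tests by Benjamini-Hochberg, the lowest exact permutation p was 0.0786.

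In astrocytes these were Msmo1 and Npc1, both in NoFR against NoFC. Msmo1 was at 807, 149, 471 and 43.0 CPM in NoFC mice 1 to 4 and at 787, 672, 560 and 634 in NoFR mice (log2 difference 1.10, standard error 0.520, edgeR adjusted p = 0.705, exact permutation p = 0.2, two-sided). Npc1 was at 173, 0, 121 and 0 CPM in NoFC mice and at 223, 186, 233 and 74.6 in NoFR mice (1.33, adjusted p = 0.705 from edgeR; exact permutation p = 0.114). The groups overlapped in both genes, and the 2 lowest NoFC mice of each held 4 astrocytes apiece. The 8 astrocyte markers summed to 3136 to 8991 CPM in the NoFC sums and 5210 to 8625 in the NoFR sums, and the astrocytes of NoFC mice 3 and 4 and NoFR mouse 4 had median mitochondrial shares of 13.0%, 10.0% and 12.9%, against 2.59% to 3.26% in the other mice of these groups. With cells under 6% mitochondrial UMIs alone, the differences were 0.77 for Msmo1 and 1.13 for Npc1. That filter left 14 mice with at least 3 astrocytes, without NoFC mouse 4, the lowest for Msmo1. With a looser hashtag rule (at least 5 UMIs and 2 times the next) the differences were 0.17 for Msmo1 and 0.60 for Npc1. With the lower gate limits at 2 times their size, which left 13 mice, Msmo1 was at 0.67. Msmo1 ranged from 0.72 without NoFC mouse 2 to 1.79 without NoFC mouse 1, and Npc1 from 0.88 to 2.05 without the same mice. Apoe was at 559 CPM in 1 of these NoFC mice and reached 16407 CPM in another.

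In pericytes Cyp51, the lanosterol demethylase, stood lowest in FR mice. It was at 5.64, 9.47, 21.4 and 6.48 CPM in FR mice 1 to 4, at 28.2, 18.8, 23.6 and 39.7 in NoFC, at 36.2, 27.9, 32.8 and 39.9 in FC and at 44.7, 33.7, 22.4 and 38.9 in NoFR mice. FR mice did not overlap FC or NoFR mice, and the highest FR mouse overlapped NoFC. The log2 difference was −1.26 against NoFC (adjusted p = 0.620), −1.51 against FC (adjusted p = 0.667) and −1.62 against NoFR (adjusted p = 0.457), all from edgeR's quasi-likelihood test. The exact permutation p, two-sided, was 0.0571, 0.0286 and 0.0286, where 0.0286 is the smallest that 4 against 4 mice can give. Adjusted over the 11 picked tests, the exact permutation p was 0.105, 0.0786 and 0.0786. Without FR mouse 3 the difference against NoFC was −1.90, and the weakest value after dropping 1 mouse was −0.90. Dropping 1 mouse gave −2.20 to −1.29 against FC and −2.17 to −1.30 against NoFR. These sums rest on 11 Cyp51 UMIs in FR mice and 37 to 47 in the other groups.

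Hmgcs1 was at 11.3, 28.4, 14.3 and 25.9 CPM in the pericytes of FR mice and at 33.5, 61.9, 39.8 and 70.1 in NoFR mice, with no overlap (log2 −1.01, adjusted p = 0.746 from edgeR; exact permutation p = 0.0286). FC mice, at 12.9 to 48.3 CPM, and NoFC mice, at 18.6 to 56.3 CPM, overlapped both. Msmo1 was at 39.5, 18.9, 39.2 and 71.3 CPM in FR and at 93.6, 60.1, 72.7 and 39.9 in FC mice (−0.64, adjusted p = 0.954 from edgeR; exact permutation p = 0.143), and these groups overlapped. It was at −0.36 without FR mouse 2 and at −1.05 without FR mouse 4. The 13 members tested had a median of −0.20 in FR against NoFR and −0.31 in FR against FC, and all genes tested 0.00 in both. In the other pericyte pairs it was 0.02 (FC against NoFC), −0.05 (NoFR against NoFC), −0.23 (FR against NoFC) and −0.15 (NoFR against FC). In astrocytes the median of the 12 members tested ran from −0.28 (FR against NoFR) to 0.56 (NoFR against NoFC). Whether any of these medians differs from that of all genes was not tested.

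Apoe was at 405, 305, 281 and 464 CPM in the pericytes of FC mice, at 290, 233, 253 and 266 in NoFC and at 271, 223, 192 and 431 in FR mice. The log2 difference was 0.51 in FC against NoFC (adjusted p = 0.977 from edgeR; exact permutation p = 0.0571) and −0.43 in FR against FC (adjusted p = 0.920 from edgeR; exact permutation p = 0.229), and 1 FC mouse lay within the range of NoFC. The difference between FR and FC was −0.23 without FR mouse 3, −0.65 without FR mouse 4 and −0.27 with a looser hashtag rule. The astrocyte markers in these pericyte sums were at 658 to 865 CPM in FC, 699 to 774 in NoFC and 622 to 837 in FR mice. Most of that level is Atp1b2, which was seen in 91.9% of pericytes. The marker level therefore cannot show whether free astrocyte RNA differed between the groups, which was not tested.

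Npc2 was at 59.6, 73.1, 72.1 and 46.7 CPM in NoFR and at 84.6, 79.4, 75 and 104.7 in FC mice, with no overlap (−0.60, adjusted p = 0.575 from edgeR; exact permutation p = 0.0286). Soat1 was at 18.6, 16.9, 32.3 and 46.7 CPM in NoFR and at 53.5, 30.0, 35.5 and 61.1 in NoFC mice (−0.72, adjusted p = 0.564 from edgeR; exact permutation p = 0.143), and these overlapped. With a looser hashtag rule the difference of Soat1 was −0.46. The genes were picked by a fit with library as a term, so their direction within libraries is largely fixed by that choice: it was the one given in each library that held both groups, of which there was 1 for Npc2 and 2 or 3 for the others.

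**Figure D5:**
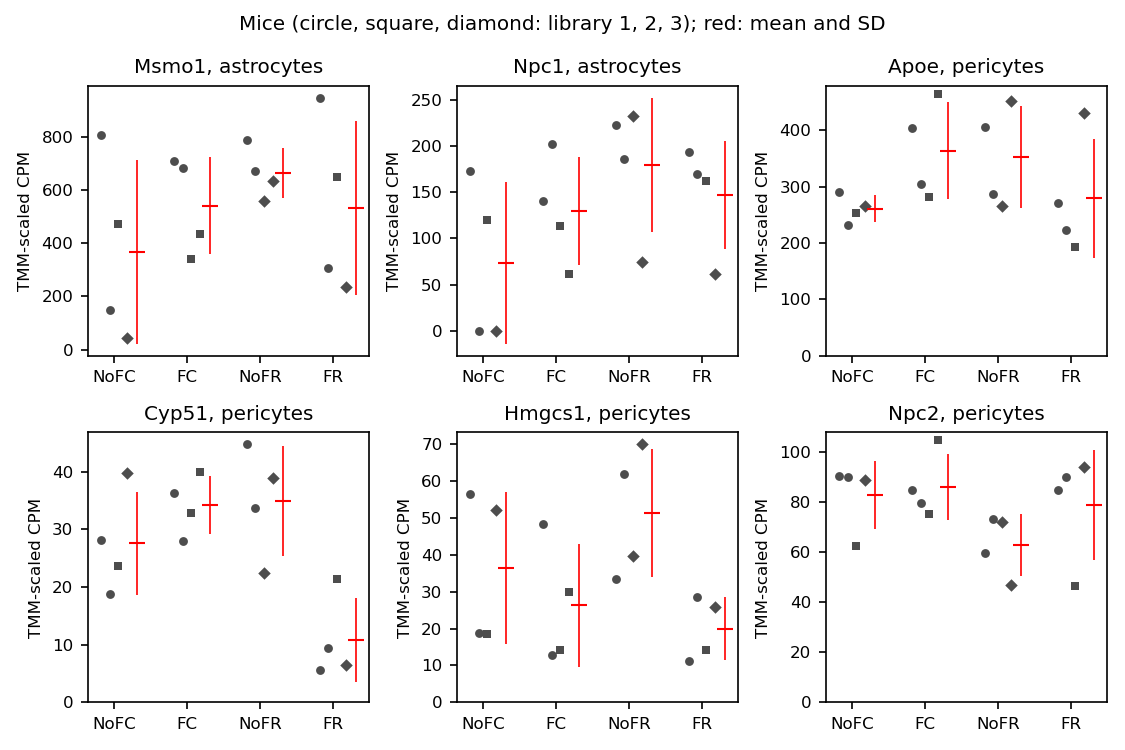
TMM-scaled CPM per mouse of 6 members with an unadjusted p below 0.05 in some pair of groups, by group and class; shapes mark the library and red the mean and SD of 4 mice. Cyp51 in pericytes is lowest in FR mice, while Msmo1 and Npc1 in astrocytes spread widely in NoFC mice.

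Whether a group difference was unlike in the 2 classes was tested by the interaction of class and group with mouse as a block. Only 9 members had counts enough, and of their 54 tests none passed, as 0% of 4190 genes did in each of the 6 pairs (55 to 185 genes had an unadjusted p below 0.05, by edgeR). Soat1 had an unadjusted p of 0.0367 in NoFR against NoFC, with a log2 interaction of 1.23 (standard error 0.565, adjusted p = 0.967, edgeR).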

How the data were processed

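Amygdala cells of 16 mice were measured in 3 pooled gene expression libraries with 3 matched hashtag libraries. The authors deposited raw UMI counts per gene and barcode; per the labels they used Cell Ranger 3.0 and mm10, while the matrix headers name Cell Ranger 7.0.0. The 3 libraries held 4.235e+07, 3.1701e+07 and 3.3369e+07 gene UMIs. Other deposited columns (gene names, barcodes and the table of hashtags and mice) were used as labels.

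The members and gene lists were chosen with earlier results of these data known. Mice come from the deposited hashtag table, in which 111 called astrocytes and 538 called pericytes carry a hashtag of no mouse listed for their library; they entered no group. Cells were not filtered beyond the gates, and no doublet caller was run: barcodes over both gates were left out. Counts were summed, filtered with filterByExpr, scaled by TMM and tested with edgeR 4.0.16 (glmQLFit) in R 4.3.3, with Benjamini-Hochberg adjustment over all genes tested at 0.05; classes with library as a block, groups with library as a covariate over mice with at least 3 cells. The libraries are pools of different mice; for single members the exact permutation test over mice (scipy 1.17.1) was added. Each standard error given is the absolute log2 difference over the square root of edgeR's F value, and not a separate estimate. DESeq2 1.42.0 served as an alternative. CPM values of single genes are TMM-scaled, while sums over markers or proliferation genes are scaled by total UMIs alone. All CPM values count transcript ends and are not divided by gene length. The fits were also run on simulated counts that gave every gene the same spread, which was not matched to that between these mice.

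All members are named between classes, members with unadjusted p below 0.05 between groups, and up to 3 called genes a direction of the other lists. Some genes of the other lists that this rule names are not reported here. Counting of overlapping genes could affect Fdps, Tm7sf2 and Acsl3, which share exon positions with a gene on the same strand, and Acat2 and Idi1, which have close paralogs. Promoter windows are from RefSeq (GRCm38.p6), gene positions from GENCODE vM21. Alternatives were other normalizations, filters, gates, depths and tools, and leaving out each library or mouse.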

Additional observations from a re-analysis of the deposited data

Results flagged for a closer look

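Npc2, the soluble lysosomal cholesterol carrier, was at 62.486 CPM in the pericytes of NoFC mouse 3 and at 88.7 to 90.1 CPM in the other 3 NoFC mice, a gap of 0.947 of the range of the group, above Dixon's 95% limit for 4 samples. It was the only one of 32 sets of 4 mice that passed this limit, which chance passes in about 5% of sets. A set is 1 gene in 1 class and 1 group. The search covered only genes picked above for an unadjusted p below 0.05, Npc2 among them, and not all members. A further 111 astrocytes and 538 pericytes had a clear top hashtag that the deposited table lists for no mouse of their library, and these cells entered no group.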

How the results depend on the processing

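Between classes, 26 to 27 members were called higher in astrocytes and 2 in pericytes under the alternatives run, except with sums per mouse, where 9 members could be tested and 8 were called higher and 1 lower. Pmvk was the only member that lost its call: its log2 difference was 0.00 with total-count scaling, 0.24 with DESeq2, 0.21 without the library block and 0.06 without library 2. Between Agt and Igfbp2 astrocytes, a comparison chosen after seeing the data like all its alternatives, 12 to 17 members were called lower and 3 to 4 higher, and no member reversed a call. No member was called between groups or in the interaction under any alternative run. No paired analysis was possible because the numbers 1 to 3 in the labels join the gene expression and hashtag counts of 1 pool and do not pair behavioural groups, and the mice numbered 1 to 4 in each group are different animals. The blocks by library between classes and by mouse in the interaction were part of those fits. Few called astrocytes per mouse limit the group comparison to the members with most UMIs.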
